A study of Zea mays with 2 samples.

Results

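Maize (Zea mays) stores starch and protein in the endosperm of the kernel, and messenger RNA of this tissue was profiled at 19 days after pollination in the floury4 (fl4) mutant and in a wild type. The labels give 2 samples, 1 library for fl4 and 1 for the wild type, both labelled endosperm, with no further allele, strain or treatment named. The series design speaks of triplicates, but each genotype has 1 value per feature, and the sources used here do not say whether that value pools or averages plants. Variation between plants therefore cannot be estimated, no test is made, and each difference is a description of 2 libraries. Levels are given as FPKM (fragments per kilobase of feature, scaled to the number of mapped fragments), as computed by the authors, and the depth of sequencing is unknown.

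The stretch described is the first 30 Mb of chromosome 7, taken as every feature on that chromosome with a start below 30 Mb. It holds 1032 of the 65535 listed features, and 612 of the 1032 reached 1 FPKM in at least 1 of the libraries. The 612 are described below, since the other 420 stayed under that level in both. A feature is named in the files by its chromosome and span alone. The sources used here do not state the genome build of these positions, and the files do not pair them with gene names. The markers of endosperm and of neighbouring kernel tissues could not be looked up for the same reason. Of the features at the border, the last one kept, at 29562413 to 29562653, stood at 12.2 FPKM in fl4 against 19.2 in the wild type, and the first one beyond it, at 30047045 to 30047935, at 3.81 FPKM in fl4 against 1.52 in the wild type. The feature nearest to the level limit from above had 0.998 FPKM in fl4 against 1.001 in the wild type, and the nearest below it 0.0778 FPKM in fl4 against 0.986 in the wild type.

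Zeins are the alcohol-soluble storage proteins that fill protein bodies of the starchy endosperm in the middle of kernel development. Genes of the alpha-zein class carry no introns and lie in tandem clusters, some of them on the short arm of chromosome 7, which also carries Opaque2, a transcription factor gene that activates many zein genes. Floury mutants have soft, opaque kernels, and fl4 has been reported to alter an alpha-zein. This is background from the literature of the species: no feature below is assigned to a zein or to Opaque2.

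Most of the stretch had the same general level as the rest of the table, and a single window carried most of its signal. The median kept feature stood at 6.71 FPKM in fl4 against 6.001 in the wild type, and that of the features elsewhere at 6.22 in fl4 against 5.97 in the wild type. In whole endosperm, fewer cells of a type and less RNA per cell cannot be told apart in any of these values. Summed over the 612 features, the stretch reached 99363 FPKM in fl4 against 81405 in the wild type. This is 8.77% of the summed FPKM of the fl4 library and 7.93% of that of the wild type. The stretch holds 1.59% of all kept features. The window from 18 to 19 Mb gave 87.7% of the summed FPKM of the stretch in fl4 against 85.4% in the wild type. Without that window, the sum of the remaining 586 features was 12229 FPKM in fl4 against 11874 in the wild type, 1.08% of the fl4 total and 1.16% of the wild type total.

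The abundant window came first in both libraries by a wide margin. Over features above 0 in both libraries it summed to 46364 FPKM in fl4 against 69532 in the wild type. The other 29 windows of 1 Mb ranged from 63.5 to 1395 FPKM in fl4, with a median of 323, and from 75.4 to 1391 FPKM in the wild type, with a median of 295. On these sums the abundant window was 33.2 times as high as the next in fl4 and 49.97 times as high in the wild type. They leave out a feature of 40770.1 FPKM in fl4 that the wild type lists at 0. Over all features the window summed to 87134 FPKM in fl4, above the wild type, and the next window in fl4 to 1398 FPKM. Features were denser in the part nearer the chromosome end: the first 15 windows held 13 to 34 kept features with a median of 26, and the last 15 held 10 to 26 with a median of 14.

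**Figure D1:**
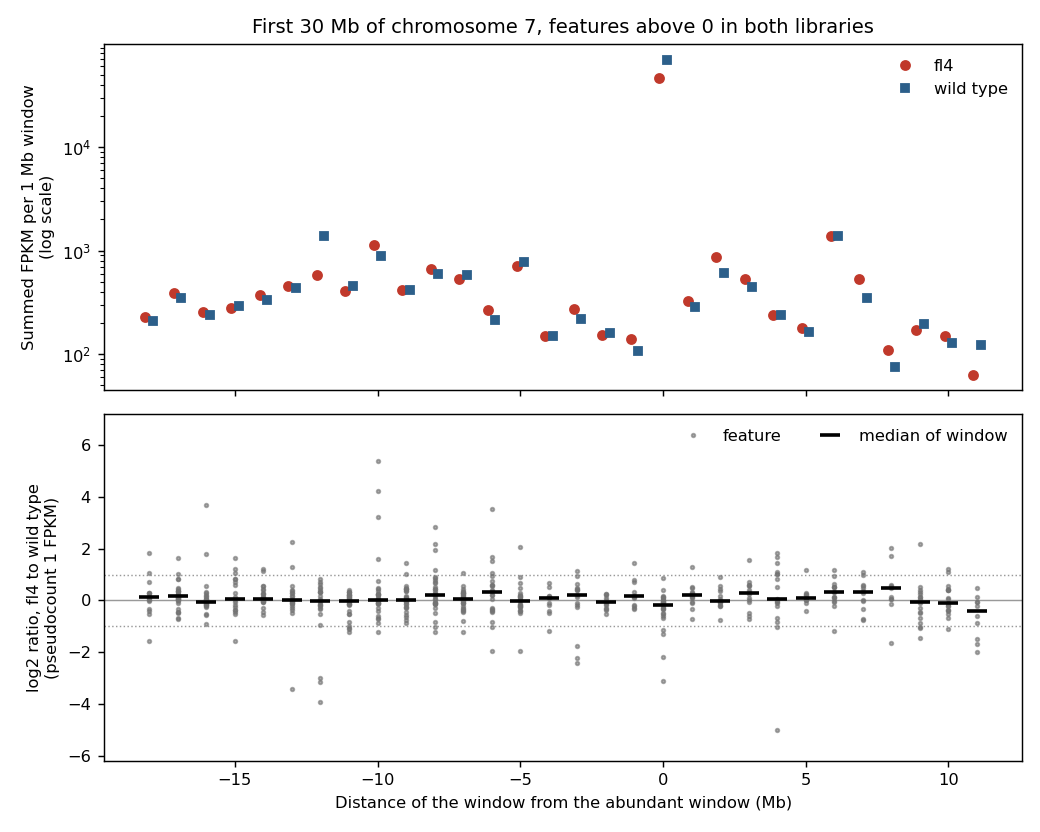
Summed FPKM per 1 Mb window on a log scale (upper panel) and the log2 ratio (fl4 over wild type) of each feature with the median of its window (lower panel), against the distance in Mb from the abundant window. The abundant window stands at 46364 FPKM in fl4 against 69532 in the wild type, and the window 12 Mb before it is the only one more than 2-fold apart.

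Inside the abundant window most of the signal sat between 18744942 and 18944704, a stretch of 199.8 kb. The window lists 41 features, of which 26 were kept, and the 14 kept features before position 18744942 summed to only 572 FPKM in fl4 against 519.7 in the wild type. Folds printed for single features are plain ratios of FPKM. Differences of 2-fold are counted on log2((FPKM + 1)/(FPKM + 1)), fl4 over wild type, where the pseudocount of 1 FPKM understates changes of low features. None of these 14 differed by 2-fold on this scale (0 of 14, against 10.6% of all kept features), with log2 ratios from -0.47 to 0.39 and a median of 0.01. Of these the feature at 18139414 to 18148234 stood at 229 FPKM in fl4 against 175 in the wild type. The feature at 18222227 to 18225278 had 119.8 FPKM in fl4 against 124 in the wild type, and that at 18473069 to 18475522 had 106 FPKM in either library. These 3 are the abundant members of the left part, and none of them reached 1.5-fold.

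The other 12 kept features, those of the 199.8 kb, summed to 86563 FPKM in fl4 against 69012 in the wild type. They hold 87.1% of the summed level of the 30 Mb in fl4, against 84.8% in the wild type. Among the 11 above 0 in both libraries, 10 were lower in fl4 and 4 of them by at least 2-fold, with a median log2 ratio of -0.61. For comparison, 3.68% of all kept features with a value in both genotypes were 2-fold lower. By any amount, 58.6% of all kept features were higher in fl4. The kept feature outside these 11 stood at 40770.1 FPKM in fl4 and is listed at 0 in the wild type. The part was chosen for its abundance, so these counts describe it and carry no test.

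The core of the cluster is a row of 5 compact features of nearly equal span, from 723 to 727 bp, which was singled out after the values were seen. They lie within 122 kb and are separated by 22.9, 9.57, 77.1 and 9.01 kb. Together they gave 88.8% of the FPKM of the window in fl4 against 84.3% in the wild type. Of the summed FPKM of the whole library they gave 6.83% in fl4 against 5.71% in the wild type. By limits set around this row, 9 features of the whole table have a span from 700 to under 750 bp and at least 1000 FPKM. Of the 9, 6 lie in the first 30 Mb of chromosome 7, and 5 of these are the row itself. The last of the row reaches that level in fl4 alone. The count therefore describes the row and carries no test of a concentration.

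The first compact feature, at 18744942 to 18745668, stood at 12482 FPKM in fl4 against 19799.6 in the wild type. The second, at 18768581 to 18769307 and with the same span of 727 bp, had 15371 FPKM in fl4 against 23478 in the wild type, where it was the highest of the window. Both were lower in fl4 by similar amounts, 1.59-fold and 1.53-fold. The third, at 18778881 to 18779606, had 2409 FPKM in fl4 against 1319 in the wild type, and was 1.83-fold higher. It is the only feature of the right part that was above 0 in both libraries and higher in fl4. The fourth, at 18856738 to 18857460, had 6345 FPKM in fl4 against 14030.2 in the wild type, 2.21-fold lower.

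The fifth compact feature, at 18866466 to 18867189, had the highest value of the 30 Mb, 40770.1 FPKM in fl4, while the wild type lists it at 0. In fl4 it made up 46.8% of the summed FPKM of the window and 3.60% of that of the whole library. Without read counts a listed 0 may also be an estimate that failed, and no fold is given for it. The 4 other compact features summed to 36607 FPKM in fl4 against 58627 in the wild type, 1.60-fold lower, a gap of 22019 FPKM. With the fifth included the 5 summed to 77377 FPKM in fl4 against 58627 in the wild type, 1.32-fold higher. The direction of the row, and with it that of the window and of the whole 30 Mb, thus turns on 1 feature. Over all its features the window summed to 87134 FPKM in fl4 against 69532 in the wild type, and over features above 0 in both it was lower in fl4, as given above. For the 30 Mb the sum over features above 0 in both was 58341 FPKM in fl4 against 81363 in the wild type. The files do not tell whether reads of copies with similar sequence were divided among these positions, and this was not tested.

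**Figure D2:**
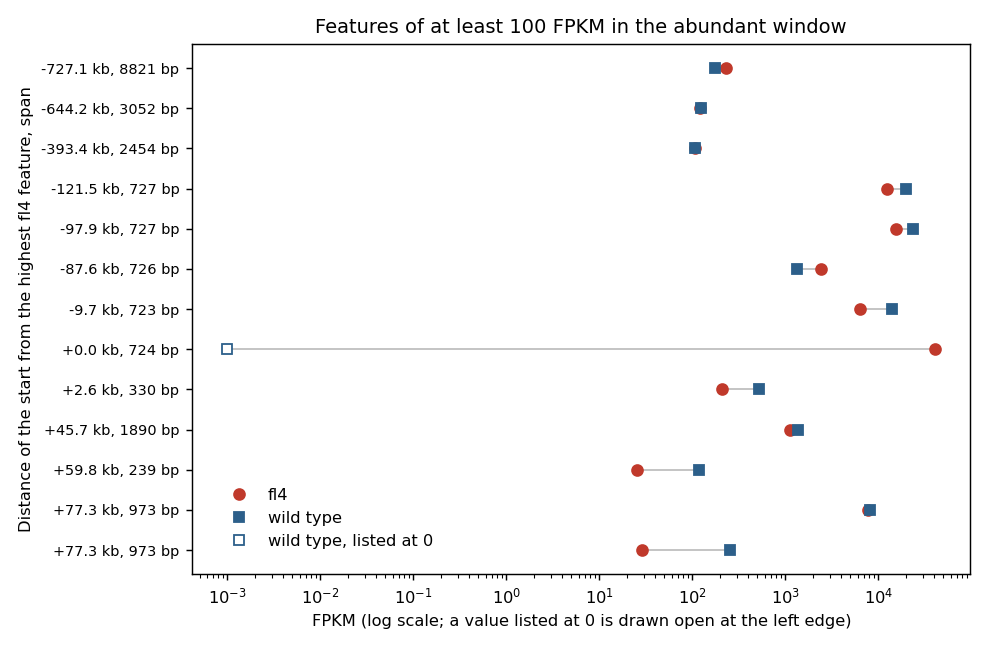
FPKM (log scale) in fl4 and the wild type for each of the 13 features of at least 100 FPKM in the window from 18 to 19 Mb, ordered by the distance of their start from the highest fl4 feature and labelled with their span. The 5 features of 723 to 727 bp hold most of the signal, and the one at 40770.1 FPKM in fl4 is listed at 0 in the wild type (open symbol at the left edge).

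A pair of short neighbours of the compact row were lower in fl4 by more than 2-fold. A feature of 330 bp starting 2.59 kb after the start of the fifth compact feature, at 18869058 to 18869387, had 207 FPKM in fl4 against 515 in the wild type, 2.49-fold lower. A feature of 239 bp at 18926315 to 18926553 had 25.3 FPKM in fl4 against 118 in the wild type, 4.67-fold lower. The longer feature between them, at 18912148 to 18914037, had 1129 FPKM in fl4 against 1361 in the wild type, 1.21-fold lower and well short of 2-fold.

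The last span of the cluster, at 18943732 to 18944704 (973 bp), is listed for 2 features that behaved differently. The abundant one had 7788 FPKM in fl4 against 8126 in the wild type, close to equality with a log2 ratio of -0.06. The other had 28.5 FPKM in fl4 against 254 in the wild type, 8.92-fold lower. The distance of 3.05 between their log2 ratios is the widest among the 48 spans of the stretch that hold more than 1 kept feature. These 48 spans hold 102 features, with up to 4 on a span. In 34 spans all features lay on the same side of equality and in 14 they did not, and the median distance between log2 ratios on a span was 0.27.

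The 13 kept features of the window below 100 FPKM showed no 2-fold difference on the scale with the pseudocount (0 of 13, against 10.6% of all kept features, so that few would be counted at the share of the table). Of these, 6 were higher and 7 lower in fl4, with log2 ratios between -0.52 and 0.16.

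Across the whole 30 Mb, 2-fold differences were more frequent than in the table, in either direction. On the same scale 64 of the 612 (10.5%) were 2-fold or more above the wild type in fl4, against 6.03% of all kept features of the table. A further 39 (6.37%) were at least 2-fold lower, against 4.58%. Both directions together gave 103 features (16.8%), against 10.6% for the table, 10.5% for the features outside the stretch and 8.93% for the rest of chromosome 7. The share was 15.5% in the first 15 Mb and 19.05% in the last 15 Mb, and 16.7% without the abundant window. Leaving out features listed at 0, 47 of 591 were higher by 2-fold, against 4.48% of such features in the table, and 35 lower, 82 in all (13.9%, against 8.16%). The differences between these shares were not tested, since features of 1 library are not replicates. The feature nearest to the threshold among those called higher had a log2 ratio of 1.02 (15.2 FPKM in fl4 against 6.999 in the wild type), and the nearest one not called 0.998. On the lower side the nearest called feature had a log2 ratio of -1.01 and the nearest one not called -0.99.

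The centre of the ratios lay close to that of the table. The median log2 ratio of the 612 features was 0.07 and that of the features elsewhere also 0.07, while the quartiles were -0.22 and 0.41, against -0.18 and 0.29 elsewhere. Of the 612, 355 were higher and 257 lower in fl4 by any amount. Of all kept features 58.6% were higher. The table of fl4 sums to 1.10 times that of the wild type. When library totals are equalised without the 20 highest features of the table, all ratios shift by -0.14, and the balance turns to 289 higher and 323 lower, so the excess of higher features depends on the scaling.

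**Figure D3:**
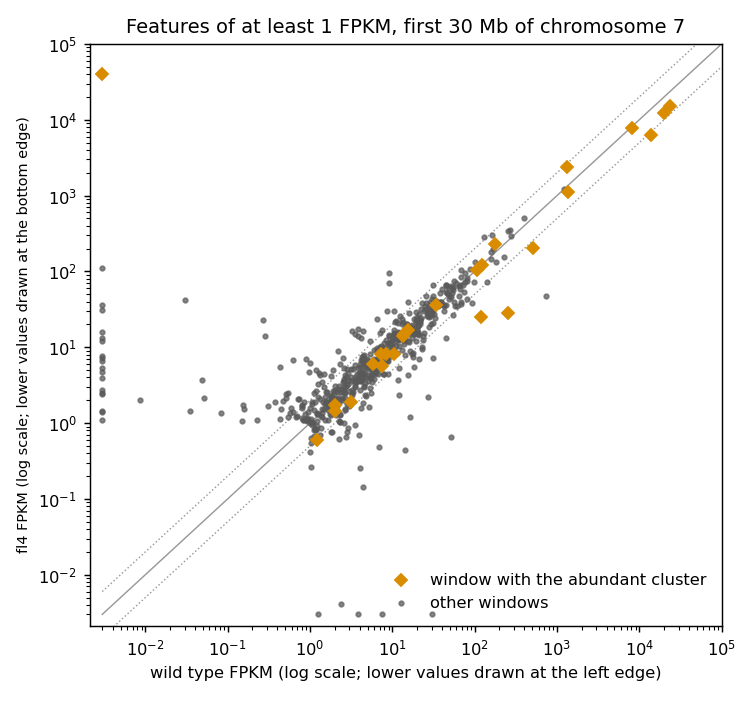
FPKM in fl4 against FPKM in the wild type on log axes for the 612 kept features, with equality (solid line) and 2-fold differences (dotted lines). Features of the abundant window (diamonds) hold the highest values, and the points along the left edge are mostly the 17 features at 0 in the wild type.

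Short features differed most often, in the stretch as in the table. Under 150 bp, 24 of 41 features (58.5%) differed 2-fold, against 52.8% of such features in the table. From 150 to under 300 bp 14 of 27 (51.9%) did, against 30.4%. With spans of at least 300 bp 65 of 544 (11.9%) did, against 6.75%. The 65 comprise 39 higher in fl4, against a share of 3.78% in the table (7.17% here), and 26 lower, against 2.97% (4.78% here). A longer span thus went with fewer differences, and the share of the stretch stood above that of the table in each of the 3 span classes. Asking for at least 1 FPKM in both libraries and 300 bp left 33 of 466 features (7.08%), against 3.87% of the table.

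**Figure D4:**
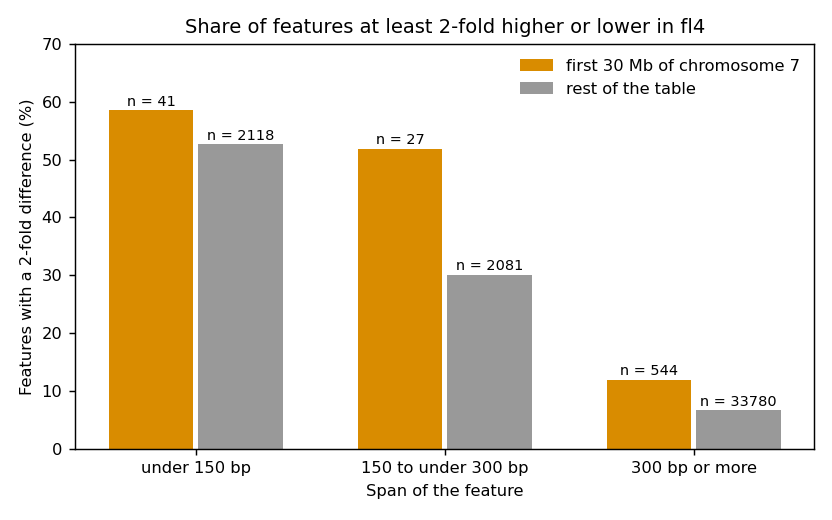
Percent of features at least 2-fold higher or lower in fl4, by span of the feature, in the first 30 Mb of chromosome 7 and in the rest of the table, with the number of features above each bar. In spans of at least 300 bp the share is 11.9% in the stretch and 6.67% in the rest of the table.

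The share of differing features was also counted by abundance. Grouped by the higher of the values of the 2 libraries, 52 of 342 features of 1 to 10 FPKM (15.2%) differed 2-fold, 43 of 237 of 10 to 100 FPKM (18.1%), and 8 of 33 of at least 100 FPKM (24.2%). For the features elsewhere the shares were 10.7%, 10.2% and 10.5%. The last group of the stretch holds 13 features of the abundant window, which gave 5 of its 8 calls. Without that window the shares of the stretch were 15.6%, 18.5% and 15% (3 of 20), with no steady rise with abundance.

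Exact zeros were few among the kept features and mostly on short spans. In fl4 4 features were listed at 0 (0.654%, against 1% of the table), with 1.27 to 30.1 FPKM in the wild type. Another 17, with fl4 values from 1.11 to 40770.1 FPKM and a median of 6.69, were at 0 in the wild type (2.78%, against 1.67% of the table). Spans under 300 bp held all 4 of the first and 14 of the 17. In such spans the wild type listed 20.6% of the features at 0, against 11.3% in the rest of the table. In spans of at least 300 bp it listed 3 of 544 at 0 (0.551%, against 0.459%). A further 1 feature in fl4 and 3 in the wild type had under 0.01 FPKM without being 0. The lowest of these, at 2877783 to 2888552, is listed at 11.9 FPKM in fl4 and at 5.16e-06 FPKM in the wild type, so the boundary between a 0 and a very low estimate is not sharp. Among the 420 features under 1 FPKM, 21 were listed at 0 in fl4 against 35 in the wild type.

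Outside the abundant window, the wild type listed 5 features at 0 that reached 10 FPKM in the mutant, all with spans of 79 to 106 bp. The highest, at 8223884 to 8223989, had 111 FPKM in fl4. The next were at 11334403 to 11334499 with 36.3 FPKM and at 15417139 to 15417237 with 30.6 FPKM. In the other direction only the feature at 15549314 to 15549410 qualified, at 0 in fl4 against 30.1 FPKM in the wild type.

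Of the 10 highest features outside the window, 7 lay within 1.5-fold. The highest, at 24151508 to 24152227, had 1206 FPKM in fl4 against 1222 in the wild type. With a span of 720 bp it is the sixth compact feature above 1000 FPKM in the stretch, 5.28 Mb from the row described above. The pair at 20165376 to 20168407 and 20171656 to 20172327 lie beside each other. The first had 513 FPKM in fl4 against 398 in the wild type, and the second 304 FPKM in fl4 against 161 in the wild type, 1.89-fold higher. That at 25903580 to 25911265 had 281 FPKM in fl4 against 130 in the wild type, 2.15-fold higher.

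A further 5 of these 10 differed by less than 1.5-fold. The remaining feature, at 6356092 to 6357279, belongs to a run of lower features given below. At 8046591 to 8060718 the values were 353 FPKM in fl4 against 271 in the wild type, and at 21276564 to 21279263 they were 345 FPKM in fl4 against 258 in the wild type. At 13173971 to 13176516 fl4 had 289.5 FPKM and the wild type 277. These 3 were all slightly higher in fl4, by at most 1.34-fold. The feature at 5133957 to 5140686 had 200.3 FPKM in fl4 against 166 in the wild type, and that at 6126181 to 6128339 had 157 FPKM in fl4 against 228 in the wild type, the only one of the 5 that was lower in fl4.

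Summed by window, the rest of the stretch was near balance. Of the 29 windows other than the abundant one, 19 were higher and 10 lower in fl4 over features above 0 in both libraries, and 26 lay within 1.5-fold. The median log2 ratio of their sums was 0.11. With equal library totals the balance of all 30 windows turned to 12 higher and 18 lower, against 19 higher and 11 lower as deposited. The 3 windows beyond 1.5-fold were those from 6 to 7 Mb, from 25 to 26 Mb and from 29 to 30 Mb. The window from 25 to 26 Mb summed to 534 FPKM in fl4 against 351 in the wild type, 1.52-fold higher, and the feature at 25903580 is its largest. That from 29 to 30 Mb summed to 63.5 FPKM in fl4 against 123 in the wild type, 1.94-fold lower over 10 features. Of these sums, 2 neighbours from 29542054 to 29545642 gave 20.1 FPKM in fl4 against 66.1 in the wild type. As deposited, only the window from 6 to 7 Mb passed 2-fold, with 580.4 FPKM in fl4 against 1391 in the wild type, 2.40-fold lower. The log2 ratios of the sums were -0.96 from 29 to 30 Mb and 0.61 from 25 to 26 Mb. With equal library totals, a shift of -0.14, the first passes 2-fold and the second falls within 1.5-fold.

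Some of the large differences lay in short runs of neighbours, which were looked for after the values had been seen. Kept features in order along the chromosome formed 14 runs of at least 2 that were 2-fold apart in the same direction, 8 higher and 6 lower, and 4 of these held at least 3 features. The 14 runs hold 36 of the 103 features that differed 2-fold (34.95%), against 23.2% of such features in the rest of the table and 18.02% in the rest of chromosome 7. Runs of at least 3 hold 15.5% of them, against 5.16% and 2.70%. Adjacent features are more often called together where more features are called, and the differences between these shares were not tested. A run can hold several features of 1 span, and whether neighbours share reads was not tested.

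The run behind the low window from 6 to 7 Mb spans 6.88 kb and holds 3 features. The feature at 6350397 to 6352152 had 2.18 FPKM in fl4 against 27.4 in the wild type, 12.6-fold lower. That at 6352734 to 6354049 had 1.19 FPKM in fl4 against 16.3 in the wild type, 13.8-fold lower. The third, at 6356092 to 6357279, had 47.2 FPKM in fl4 against 732 in the wild type, 15.5-fold lower, and was the second highest wild type feature outside the abundant window. By plain ratio the folds of the 3 lie close together although their levels differ widely. With the pseudocount their log2 ratios were -3.16, -2.99 and -3.93. Without these 3 the window summed to 530 FPKM in fl4 against 615 in the wild type, and its log2 ratio was -0.22.

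The run from 8218239 to 8255723 holds 5 features on 4 spans, all higher in fl4. On the span from 8218239 to 8220358 the more abundant feature had 22.9 FPKM in fl4 against 0.270 in the wild type, 84.6-fold higher, and the other had 2.16 FPKM in fl4 against 0.0515 in the wild type. The feature of 106 bp at 8223884 is the one already given at 111 FPKM in fl4 against 0 in the wild type. None of the 5 reached 10 FPKM in the wild type. At 8252671 to 8252760, a span of 90 bp, the values were 94.1 FPKM in fl4 against 9.18 in the wild type, 10.2-fold higher. The last, at 8253464 to 8255723, had 42.2 FPKM in fl4 against 0.0304 in the wild type, the largest log2 ratio (5.39) among features above 0 in both libraries and of at least 10 FPKM. The run summed to 272 FPKM in fl4 against 9.54 in the wild type. Its window without the 5 features had 961 FPKM in fl4 against 886 in the wild type, and the log2 ratio was 0.12.

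A run of lower features from 15491455 to 15549410 consists of 3. The first had 0.00407 FPKM in fl4 against 2.36 in the wild type, and the second, at 15542536 to 15548638, had 0.145 FPKM in fl4 against 4.40 in the wild type. The third is the feature of 97 bp that fl4 lists at 0, with 30.1 FPKM in the wild type. All 3 were at or near 0 in fl4, and each is low or short.

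The last run, from 22273058 to 22330114, holds 5 features that were moderately higher in fl4. The first had 15.2 FPKM in fl4 against 6.999 in the wild type, 2.17-fold higher. At 22317456 to 22319193 the values were 4.99 FPKM in fl4 against 1.18 in the wild type, 4.23-fold higher. The span from 22326875 to 22327610 is listed for 2 features, with 16.2 FPKM in fl4 against 4.35 in the wild type for the first, and 4.37 FPKM in fl4 against 1.49 in the wild type for the second. The last, at 22328874 to 22330114, had 14.98 FPKM in fl4 against 3.51 in the wild type, 4.26-fold higher. In the wild type only the first of the 5 exceeded 5 FPKM, and none of them was listed at 0.

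**Figure D5:**
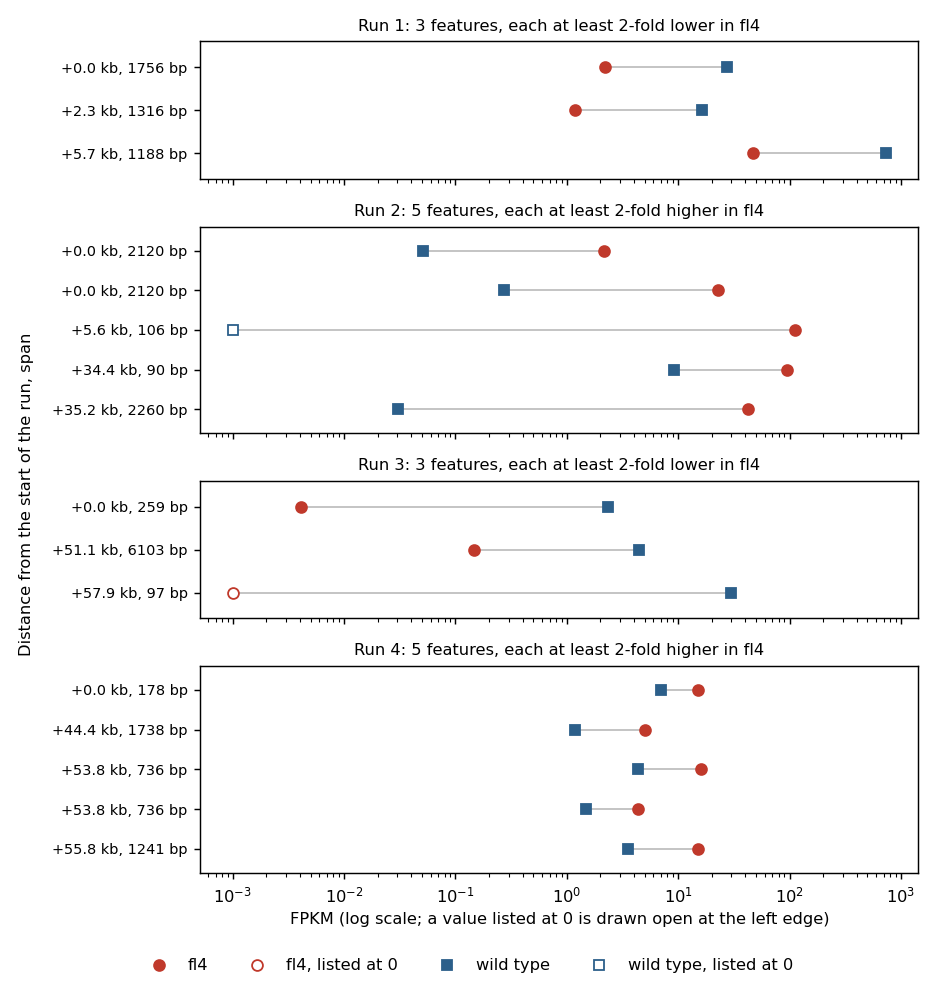
FPKM (log scale) in fl4 and the wild type for the features of the 4 runs of at least 3 neighbouring features that differ 2-fold in the same direction, labelled with their distance from the start of the run and their span. Runs 1 and 3 are lower in fl4 and runs 2 and 4 higher, and open symbols at the left edge mark values listed at 0.

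Some large differences stood outside these 4 runs. At 22626675 to 22628952 the values were 0.658 FPKM in fl4 against 51.8 in the wild type, 78.8-fold lower. With the pseudocount this was the most negative log2 ratio (-4.99) outside the abundant window among features above 0 in both libraries. By plain ratio the low feature at 15491455, of the third run, was further apart (580-fold lower). At 10165496 to 10166683 fl4 had 69.8 FPKM and the wild type 8.99, 7.76-fold higher. The feature at 12479306 to 12480176 had 2.37 FPKM in fl4 against 12.1 in the wild type, 5.11-fold lower. On short spans, the feature of 118 bp at 12748827 to 12748944 had 13.9 FPKM in fl4 against 0.286 in the wild type, and that of 126 bp at 5106361 to 5106486 had 0.443 FPKM in fl4 against 14.4 in the wild type.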

How the data were processed

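Levels were deposited as FPKM, computed by the authors, per the file headers. The submitters' processing notes name Bowtie 0.12.2, while the quantification program, build, annotation and filters are not stated in the sources used here. Features stand in the same order in each file, and the libraries were joined by row. For 8 features the position could not be read, and they were assigned to no chromosome. For each feature with at least 1 FPKM in either library, log2((FPKM + 1)/(FPKM + 1)) of fl4 to wild type was computed, and a 2-fold difference was counted as a size, without a test. Sums per 1 Mb window, counted from the chromosome start, use features above 0 in both libraries unless stated. Depth is unknown, so no counting error can be given. Named features are those of at least 100 FPKM in the abundant window and, outside it, the 10 highest, the 6 largest ratios each way of at least 10 FPKM, and features of at least 10 FPKM listed at 0 in the other library. Features at the limits and features in runs of neighbours are also named. The runs were looked for after the values had been seen. The members, lists and alternatives were chosen with earlier results of these data known. The counts and sums were checked on simulated data without noise, zeros or low wild type levels. That check covers the arithmetic and not the calls of low features. No sequence is printed, since no genome of the files' build was used here. Computation used Python 3.11.15, pandas 2.3.3, numpy 2.4.6 and matplotlib 3.10.9.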

Additional observations from a re-analysis of the deposited data

How the results depend on the processing

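Of 71 alternative values, 46 stayed close, 20 moved further and 5 reversed. Close means within 1.5 times for a count, and the same sign and within 1.5-fold for a log2 ratio. That limit is wide beside a median log2 ratio of 0.07. There were 64 higher and 39 lower features by 2-fold, 16.8% of the 612 against 10.6% of the table. Asking for 1 FPKM in both libraries gave 25 and 23 of 509, 9.43% in all, against 5.81% of the table. A pseudocount of 5 FPKM gave 28 higher and 19 lower of the 612. A threshold of 1.5-fold gave 101 and 70, and one of 4-fold gave 23 and 12. For this pseudocount and these thresholds the share of the table was not counted. By construction, a higher threshold or a larger pseudocount counts no more features, and a lower threshold no fewer. Settings that test fewer features can only lower the counts. The higher count became 39 both with a minimum of 5 FPKM and with spans of at least 300 bp. At that minimum 66 of 381 features differed 2-fold in either direction (17.3%, against 11.1% of the table). Among those spans 65 of 544 did (11.9%, against 6.75%). The median log2 ratio of 0.07 reversed to -0.0677 with equal totals. Sums over features above 0 in both libraries reversed when features listed at 0 were added. They went from -0.48 to 0.29 (log2) for the 30 Mb and from -0.58 to 0.33 for the window from 18 to 19 Mb. Both turn on the feature at 40770.1 FPKM in fl4 that the wild type lists at 0. The sum without that window did not reverse in this way (0.02 to 0.04). Without that window the log2 ratio of 0.02 reversed to -0.0501 with median centring and -0.12 with equal totals. Windows higher and lower (19 and 11) became 12 and 18 with equal totals, and 10 and 5 with 2 Mb windows, which are fewer by construction. Zeros numbered 4 for fl4 and 17 for the wild type. They numbered 2 and 10 at a minimum of 5 FPKM, 25 and 52 without one, and 0 and 3 among spans from 300 bp. Leaving out the window from 18 to 19 Mb, or features under 0.01 FPKM, was chosen after the data were seen. With 1 library per genotype no replicate was left out. No paired analysis was possible because there are no pairs.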
